A study of Homo sapiens with 197 samples.

Results

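The wells described here were the 5 wells of IMR90 cells infected with STK3, MOBKL1A, STK38L, TAOK3 or OXSR1, which belong to the Hippo pathway or to the STE20 family of kinases. They were chosen by the kinase named in their label, and make up 2.73% of the kinase wells compared and 2.54% of all samples of the series. The wells of the other kinases, 35.6 for each of the 5, were the group they were set against. In the study, IMR90 cells, a line of human fetal lung fibroblasts, were infected in wells with retroviruses that each carry 1 kinase made active by a myristoylation signal, and total RNA was collected 4 days after infection. Nanostring probes, colour-coded oligonucleotides that bind a transcript directly and are tallied molecule by molecule, then measured 42 genes normally restricted to tissues such as testis or placenta, 15 other endogenous rows and 4 housekeeping genes. All kinase wells and the 2 IMR90 controls, which received the empty retroviral vector, were the same line at the same time after infection. The HK1 lane, the second lanes of PIK3CG and PTK2 and the second lane of 1 control were left out.

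In the Hippo pathway, STK3 (also called MST2) phosphorylates the LATS kinases together with their adaptor MOB1, and LATS then phosphorylates the coactivators YAP and TAZ, which are held in the cytoplasm as a result. MOBKL1A, now named MOB1B, is one of the MOB1 adaptors and has no kinase activity of its own. STK38L (NDR2) is a relative of the LATS kinases that also binds MOB1 and is phosphorylated by MST kinases. TAOK3 belongs to the TAO group of STE20 kinases, whose members act on MST kinases and on stress-activated MAP kinase cascades. OXSR1 (OSR1) is a STE20 kinase that WNK kinases activate and that phosphorylates cation-chloride cotransporters during osmotic stress. The probe panel held no target gene of YAP and TAZ such as CCN1, CCN2 or ANKRD1, and no probe for the 5 genes themselves, so neither pathway output nor the identity of the insert could be read from these counts.

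Each of the 5 wells was measured in 1 lane and received a different insert, so there is no replicate error for a single insert. A comparison of the 5 wells with the others is set against the spread between wells, in which insert, infection, lane and sample number are not separated. The STK3 lane held 167708 counts in all, the MOBKL1A lane 84167, the STK38L lane 151292, the TAOK3 lane 182038 and the OXSR1 lane 141571. The other kinase lanes ranged from 29629 to 340763, with a median of 159744. MOBKL1A was thus the least deeply counted of the 5 lanes, and was 6th from the lowest among all kinase lanes. In an exact two-sided rank-sum permutation test against the other wells, the total count gave p = 0.46, the geometric mean of the positive controls p = 0.524, the housekeeping geometric mean p = 0.615, the negative-control level p = 0.826 and the scaling factor p = 0.615. After adjustment over these 5 measures the smallest p was 0.768. The factor that multiplied the counts of a lane was 0.769 for STK3, 1.38 for MOBKL1A, 0.919 for STK38L, 0.768 for TAOK3 and 1.14 for OXSR1, against a median of 1.01 in the other wells. A value is called a scaled count below once the lane was brought to a common level of its positive controls and then of PGK1, TBP and TUBB2A.

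These 3 housekeeping genes, used for the scaling, moved little against each other in the 5 wells. Scaled counts ranged from 9475 to 10215 for PGK1, a glycolytic enzyme, from 412 to 450 for TBP, the TATA-binding protein, and from 4092 to 4610 for TUBB2A, a beta-tubulin. In the other wells PGK1 ranged from 8504 to 12525.

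Rows whose names or levels relate to the vector were looked at first. They are shared by all kinases and cannot check which kinase a well received. The names of the 15 other endogenous rows cannot be taken at face value. The row named MyrFlag, after the tag shared by the kinases, was at 665 and 714 scaled counts in the empty-vector controls, within the range of 429 to 870 in the other kinase wells. The row named ZBTB33, by contrast, was at 8.75 and 18.3 in the controls, at 6.86 and 6.23 in SW39, an immortalized fibroblast line, and at a median of 22687 in the other kinase wells. The row named ZBTB38 was counted in the controls, at 1591 and 7039, and in SW39, at 5066 and 6566. The row named DNMT1 was counted 16 times in the median kinase lane, below the median negative-control level of 20.6. These 15 rows are therefore given under their names in the files, and nothing is said about the genes of those names. The names may be displaced within the list, so the row named ZBTB33 may count the tag shared by the kinases. This was not tested.

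TAOK3 was the lowest of all kinase wells compared in both the ZBTB33 and the ZBTB38 row. In the TAOK3 well the row named ZBTB33 had 146.8 scaled counts. Its raw count, with an exact Poisson 95% interval of 164.9 to 220.1 that covers counting error alone, was 7.44 times the negative-control level of the lane, which was 25.7. The scaled counts were 3720 in STK3, 8918 in MOBKL1A, 2425 in STK38L and 23359 in OXSR1. OXSR1 lay close to the median of the other wells and 4 of the 5 lay below it. The next lowest kinase well was TTK at 344, followed by CDK7 at 441, so that TAOK3 was 2.34-fold below its nearest neighbour and 154.6-fold below the median. Counted from the lowest kinase well, the places were 1 for TAOK3, 13 for STK38L, 15 for STK3, 44 for MOBKL1A and 97 for OXSR1.

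The row named ZBTB38 gave the same order of the 5 wells, at 82.2 scaled counts in TAOK3, 1412 in STK38L, 2689 in STK3, 3879 in MOBKL1A and 13118 in OXSR1. The median of the other wells was 12668. In TAOK3 the raw count of this row (exact Poisson interval of 87.7 to 129.3) was 4.17 times the negative-control level, and the scaled count lay below both empty-vector controls. STK38L was also below both controls, and 12 of the other kinase wells were below the lower one. The ratio of the ZBTB33 to the ZBTB38 row was 1.79 in TAOK3, 1.72 in STK38L, 1.38 in STK3, 2.30 in MOBKL1A and 1.78 in OXSR1, against 1.37 to 3.2 in the other wells. The 2 rows ran in parallel across the kinase wells (Pearson r = 0.992, Spearman rho = 0.982, each well giving both values from the same lane and scaling factor). The wells of the controls and of SW39 lay off this line.

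**Figure D1:**
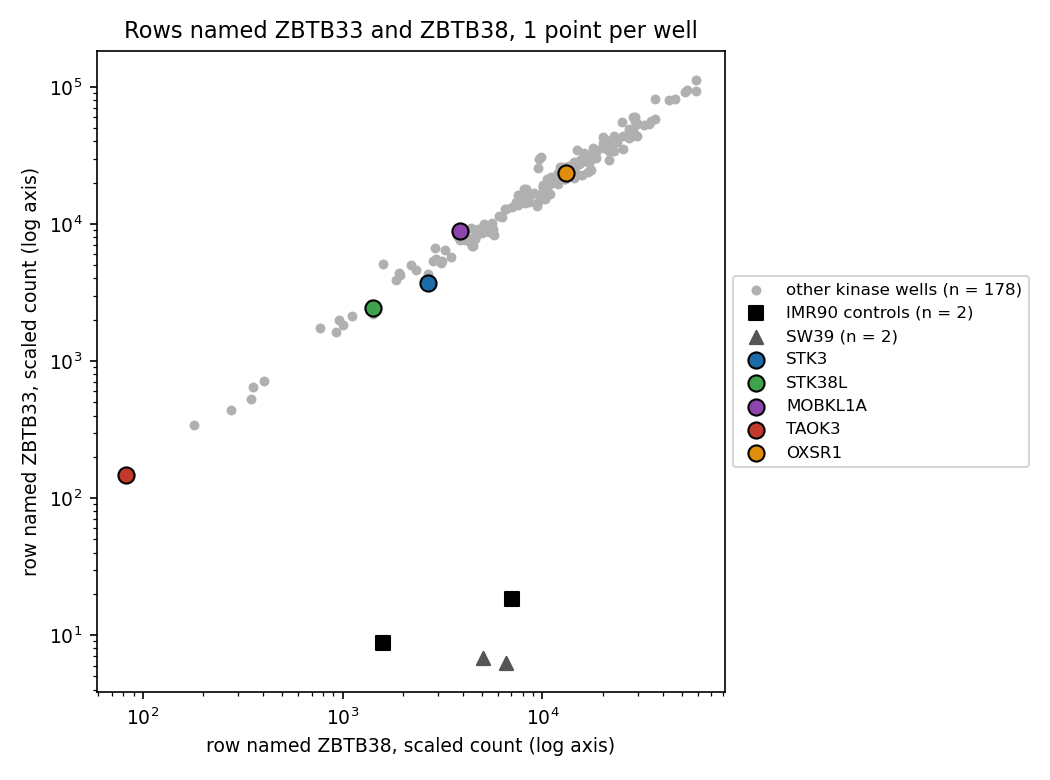
Scaled counts of the row named ZBTB38 (horizontal, log axis) and the row named ZBTB33 (vertical, log axis), with 1 point per well for the 5 coloured wells, the other kinase wells, 2 IMR90 controls and 2 SW39 lanes. TAOK3 lies at the low end of the line of kinase wells, at 82.2 and 146.8, and OXSR1 at 13118 and 23359 lies near the middle of the cloud.

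Some wells of similar sample number were also low in these rows beside TAOK3 and STK38L. Wells were grouped in blocks of 12 successive sample numbers, a grouping made for this comparison that the labels do not name as a batch. In the block of TAOK3 the 11 other wells had a median of 8764 scaled counts in the ZBTB33 row (530 to 47151), and TAOK3 was below all of them. The median of the other wells in the block was 9369 for STK38L, 43911 for STK3, 15581 for MOBKL1A and 21696 for OXSR1. STK3 was the lowest well of its block, whereas TTK at 344 and MELK at 1837 lay below STK38L in the same block. Over the 5 wells, the median log2 difference in the ZBTB33 row was -2.61 against all other wells and -1.95 within blocks, and 4 of 5 wells were lower in either case. In the exact rank-sum test against the other wells, the ZBTB33 row gave p = 0.00986 and the ZBTB38 row p = 0.0087, and adjusted over the 58 rows tested both gave 0.114. The low value of TAOK3 was known when these rows were picked for attention, so these tests are no independent evidence.

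ADAM12, a metalloprotease normally high in placenta, had no high value in the 5 wells. Its scaled count was 40.8 in STK3, 26.2 in MOBKL1A, 41.4 in STK38L, 46.1 in TAOK3 and 49.2 in OXSR1. The other kinase wells had a median of 44.9 and a range of 27.5 to 504, the highest being MAP3K7, and the controls were at 35.01 and 46.8. MOBKL1A therefore had the lowest scaled count of ADAM12 among all kinase wells. It rested on 19 raw counts (exact Poisson 95% interval of 11.4 to 29.7) in a lane with a negative-control level of 11.7. PDIK1L followed at 27.5 scaled counts from 11 raw counts, so the 2 wells were not distinguishable at this depth. Against the 10 other wells of its block, which had a median of 38.04 and a range of 29.7 to 54.7, MOBKL1A was again the lowest. Multiplied by the factor of 1.38 of this lane, the Poisson interval reaches past that median. Counting error alone thus leaves many other wells within it, and the lowest place of MOBKL1A is not firm. STK38L, STK3, TAOK3 and OXSR1 lay between place 57 from the lowest and place 58 from the highest. The Z-score of ADAM12 in MOBKL1A was -1.95, where a Z-score is the distance from the mean of the other kinase wells on the log2(scaled count + 1) scale, divided by their SD.

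**Figure D2:**
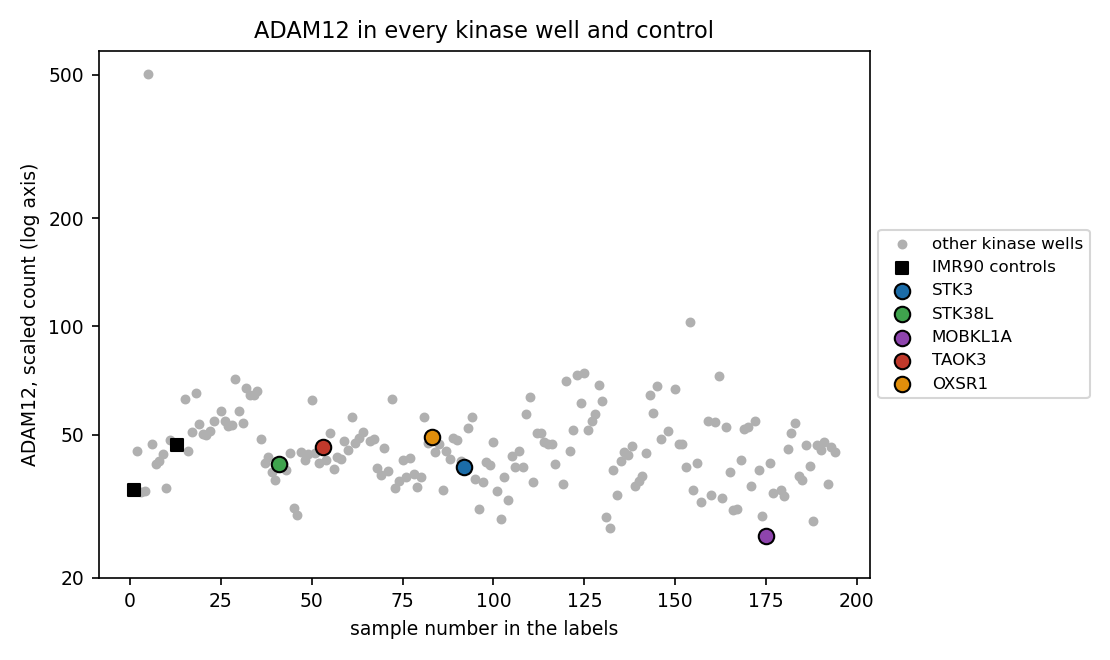
Scaled count of ADAM12 (vertical, log axis) by the sample number in the labels (horizontal) for all kinase wells and the 2 IMR90 controls, 1 point per well. MOBKL1A, at 26.2 from few raw counts, is the lowest kinase well, and the other 4 coloured wells, at 40.8 to 49.2, lie within the bulk.

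Other than ADAM12, 3 of the tissue-restricted genes were detected, meaning that their median raw count over the kinase lanes exceeded the median negative-control level of 20.6. ATAD2, a bromodomain ATPase found in testis and dividing cells, was at 179.2 scaled counts in STK3, 166.8 in MOBKL1A, 200.3 in STK38L, 192.9 in TAOK3 and 161.2 in OXSR1, and at a median of 178.3 in the other wells. These values lie on both sides of that median and the highest, STK38L, was at place 42 from the highest of all kinase wells. ALAS1, the first enzyme of heme synthesis, was at 448, 398, 455, 443 and 433 in the same order. All 5 wells were below the median of 482 of the other wells for ALAS1, but within their blocks of sample numbers 2 of 5 were lower, with a median log2 difference of 0.01. PLCZ1, the sperm phospholipase that starts calcium waves in the egg, was at 20 in STK3, 22.1 in MOBKL1A, 22.1 in STK38L, 21.5 in TAOK3 and 26.3 in OXSR1. The median of the other wells was 27.03 for PLCZ1. All 5 wells were below it, and within their blocks 4 of 5 were lower, with a median log2 difference of -0.28. However, the raw counts of PLCZ1, 16 to 28, lay near the negative-control levels of the lanes.

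B2M, the invariant light chain of MHC class I, was not used for scaling. Its scaled count was 38868 in STK3, 25894 in MOBKL1A, 34581 in STK38L, 40148 in TAOK3 and 48875 in OXSR1, against a median of 39475 in the other wells (23138 to 95392) and 34514 and 42381 in the controls. MOBKL1A was at place 5 from the lowest of all kinase wells for B2M. The wells next to it in sample number were low as well, with a median of 26944 in its block. OXSR1 was the highest of the 5, yet it lay below the median of 72708 of its own block.

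Among the other endogenous rows, 12 were detected, and apart from the ZBTB33 and ZBTB38 rows none had a Z-score past 2.5 in size in any of the 5 wells. By the rule for named rows, which takes the 2 highest and the 2 lowest Z-scores of a well among the 17 detected rows only, STK38L was highest in the rows named Tet2 (1.42) and PPM1D (1.28) and lowest in ZBTB33 (-1.89) and ZBTB38 (-1.81). TAOK3 was highest in the rows named Tet1 (0.71) and KCNA1 (0.65) and lowest in ZBTB33 (-4.57) and ZBTB38 (-4.48). STK3 was highest in UHRF1 (0.40) and ATAD2 (0.13) and lowest in ZBTB33 (-1.48) and the row named ITPR2 (-1.42). OXSR1 was highest in B2M (0.52) and ITPR2 (0.35) and lowest in Tet2 (-1.49) and Tet1 (-1.04). MOBKL1A was highest in ITPR2 (-0.12) and Tet1 (-0.13) and lowest in ADAM12 (-1.95) and the row named MyrFlag (-1.76). These orders leave out the undetected rows, some of which lay further out. Every one of the 15 detected rows other than ZBTB33 and ZBTB38 was thus below the mean in MOBKL1A, as were 12 of 15 in STK3 and in OXSR1 and 7 of 15 in STK38L and in TAOK3. The rows of a lane share 1 scaling factor, and the mean is over all blocks of sample numbers. How many of the other kinase wells had such counts is not given here, so they cannot be called particular to these wells. No row stood at an extreme in all 5 wells. The Tet2 row, for instance, was at place 16 from the highest in STK38L and at place 16 from the lowest in OXSR1.

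**Figure D3:**
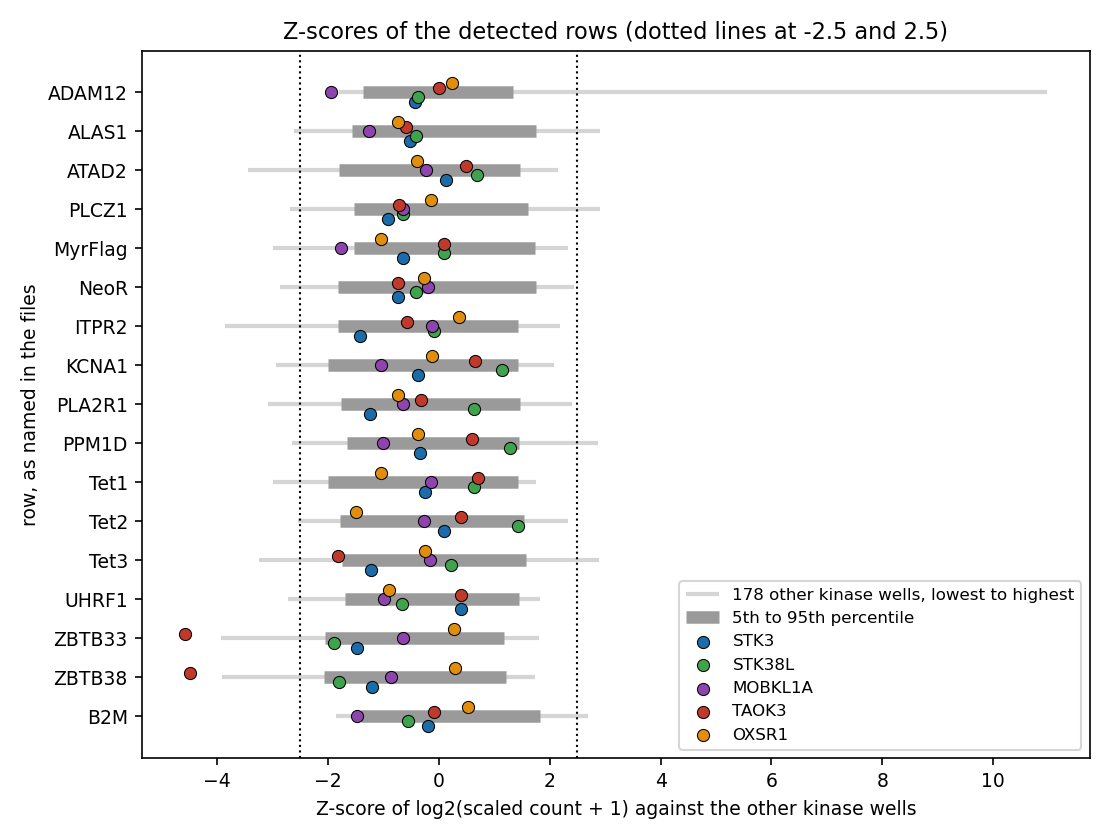
Z-scores (horizontal) of the 17 detected rows (vertical) in the 5 coloured wells, with the range and the 5th to 95th percentiles of the other kinase wells as thin and thick grey bars and dotted lines at -2.5 and 2.5. TAOK3 lies outside the range of the other wells in the rows named ZBTB33 (-4.57) and ZBTB38 (-4.48), and MOBKL1A lies just below it for ADAM12 (-1.95).

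Over all 58 rows tested (57 endogenous rows and B2M), none of the 290 well/row pairs of the 5 wells had a Z-score above 2.5. The highest was 1.84, for HORMAD1, a protein of meiotic chromosome axes, in MOBKL1A. There it was counted 19 times, where the negative controls set a level of 11.7. The share of pairs above 2.5 was 0.387% in the other kinase wells, each set against the remaining ones, and 0.33% among detected rows. Below -2.5 there were 3 pairs, or 1.03%, against 0.92% in the other wells, and among detected rows 2 of 85 pairs, or 2.35%, against 1.22%. Of these 3 pairs, 2 were the ZBTB33 and ZBTB38 rows of TAOK3. The other was XAGE1, a cancer/testis antigen of the X chromosome, in STK3, with a Z-score of -2.92. It rested on 2 raw counts, where the negative-control level was 28.2, and the other 4 wells were at 5 to 9 raw counts, so a lower level of XAGE1 in STK3 could not be told from background. No single well held more than 2 pairs past the threshold, and STK38L, MOBKL1A and OXSR1 held 0. With the median and a scaled median absolute deviation of the other wells in place of their mean and SD, ADAM12 in MOBKL1A was past the threshold at -2.58, as were SSX1 in MOBKL1A and the ZBTB33 and ZBTB38 rows in STK38L. With the blocks of sample numbers centred, STK3 held 4 pairs and MOBKL1A 2, all in undetected rows, and ADAM12 in MOBKL1A was at -1.25. The share of the other kinase wells past the threshold is not given here for either setting. The added pairs can therefore not be called particular to these wells.

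Most tissue-restricted genes were at the level of background in these wells. The counts of 4 of the 42 were above the negative-control level of the lane in STK38L, TAOK3 and OXSR1, 3 in STK3 and 9 in MOBKL1A, against a median of 6 in the other wells (3 to 23). ADAM12, ATAD2 and ALAS1 were above it in all 5 wells, and PLCZ1 was in all but STK3. The 5 further genes above it in MOBKL1A alone were ADAM2, a sperm surface protein, ASZ1, a piRNA pathway protein, DDX53, FMR1NB and HORMAD1. They were counted 12 to 19 times there. In the other kinase wells these 5 were above the level in 40.5% (ADAM2), 5.06% (ASZ1), 31.5% (DDX53), 50% (FMR1NB) and 16.3% (HORMAD1) of lanes. MOBKL1A had the lowest negative-control level of the 5 lanes, 9th from the lowest among all kinase lanes, and the part of this low level in the number of genes above it was not tested.

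The 5 wells together were then compared with the others by edgeR's quasi-likelihood test on the counts, with Benjamini-Hochberg adjustment over the 58 rows. At an adjusted p of 0.05, 0 rows were called (0% of 58), and the smallest adjusted p was 0.0938. At an unadjusted p of 0.05, 16 rows were lower (27.6% of 58) and 0 were higher, and 14 of these 16 were rows not detected above background. On the same scaling factors DESeq2 called 3 rows lower, limma on log2(scaled count + 1) called 3 lower, and the exact rank-sum test called 1 lower. The ZBTB33 and ZBTB38 rows were called by both DESeq2 and limma, CTAG1B by DESeq2 only, and TKTL2 by limma and the exact test. The low value of TAOK3 in the ZBTB33 and ZBTB38 rows was known beforehand. Calls of these 2 rows as lower, here and below, are therefore no independent evidence. In limma, a floor at the negative-control level moved CTAG1B from -1.02 to -0.22 on the log2 scale, and TKTL2 from -0.90 to -0.20. With the floor neither was called.

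In the edgeR fit, the ZBTB33 row differed by -1.73 on the log2 scale, with a standard error of 0.69 (adjusted p = 0.127), and the ZBTB38 row by -1.75, with a standard error of 0.71 (adjusted p = 0.127). These rows had the smallest p among the 17 detected ones. Next in order were ALAS1 at -0.17 (standard error 0.10, adjusted p = 0.257), PLCZ1 at -0.38 and the row named MyrFlag at -0.13. ADAM12 was at -0.26 (standard error of 0.24, adjusted p = 0.455), B2M at -0.21 (standard error 0.22) and ATAD2 at 0.02 (standard error 0.13). For ADAM12 and B2M the standard error is about as large as the difference, and for ATAD2 it is far larger. Without the MOBKL1A well ADAM12 was at -0.15 and B2M at -0.10. With blocks of 12 sample numbers as a term ADAM12 was at -0.05 and B2M at -0.26 (standard error 0.18). Without the OXSR1 well, 2 rows were called, ZBTB33 (log2 fold change of -2.75) and ZBTB38 (-2.82). Without the TAOK3 well 0 rows were called, and 7 rows had an unadjusted p under 0.05.

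The direction of the weak rows depended on some of the scalings tried. With the housekeeping scaling, 55 of the 58 rows had a negative log2 fold change, with a median of -0.29 over all rows and -0.11 over the detected ones. With the positive controls alone the median over all rows was also -0.29, again with 55 of 58 negative, and with B2M added to the housekeeping genes it was -0.25, with 51 of 57 negative. With edgeR's TMM factors the median over all rows was -0.12, 41 of 58 were negative, and among the 17 detected rows 5 were. With DESeq2's own size factors the median was 0.00 and 29 of 58 were negative. With the block of 12 sample numbers as a term it was -0.12, with 47 negative and 6 at an unadjusted p of 0.05. The scaled mean of the negative-control probes was 9.81 in STK3, 5.51 in MOBKL1A, 10.1 in STK38L, 9.80 in TAOK3 and 8.43 in OXSR1, against a median of 9.11 in the other wells.

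**Figure D4:**
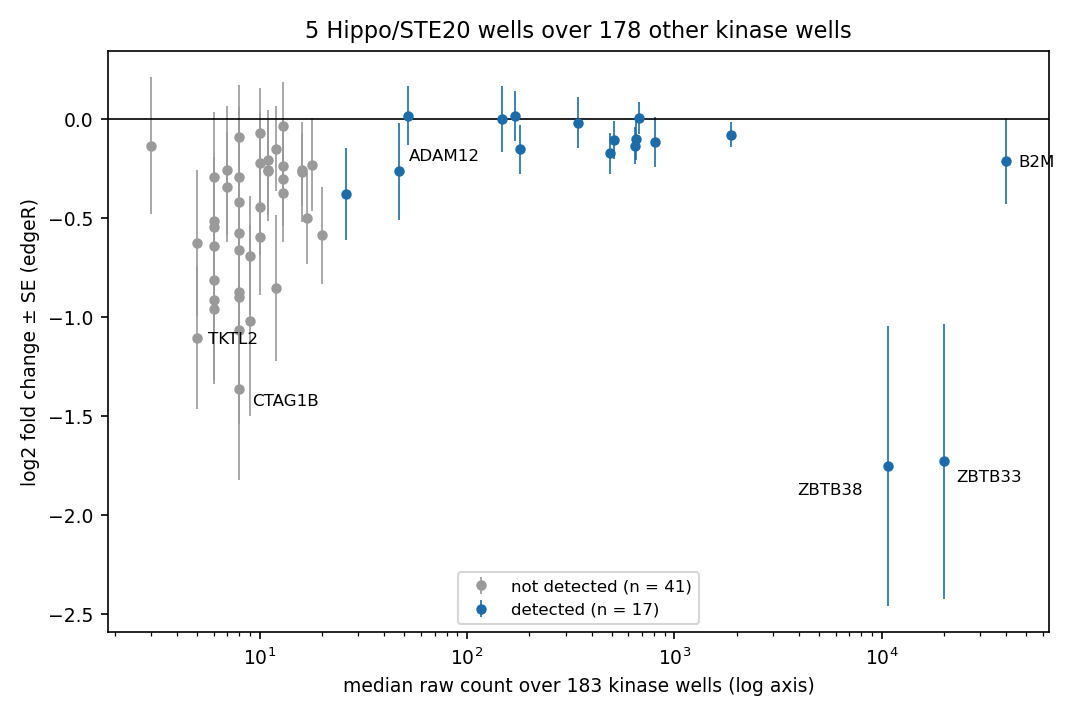
Log2 fold change of the 5 wells over the other kinase wells, with the standard error as bars (vertical, edgeR), by the median raw count of the row over the kinase wells (horizontal, log axis), for 17 detected and 41 undetected rows. The ZBTB33 and ZBTB38 rows lie at -1.73 and -1.75, the other detected rows lie between -0.38 and 0.02, and the undetected rows lie at or below 0 with wide bars.

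By gene group, the cancer/testis antigens of the panel (MAGE, SSX and XAGE genes, PRAME, CTAG1B, FMR1NB and CTCFL) had 13 rows, none detected. None was called in the edgeR fit, and their median log2 fold change was -0.44 beside -0.29 over all 58 rows. Of their 65 well/row pairs 1 exceeded the level set by the negative controls, against 89 of 290 over all rows tested. The lowest fold change among them was that of CTAG1B, which encodes NY-ESO-1, at -1.36 with a standard error of 0.46 (edgeR, adjusted p = 0.0938). Its raw counts were 3 in STK3, 2 in MOBKL1A, 4 in STK38L and 5 in both TAOK3 and OXSR1, all below the negative-control levels. Genes of germ cell RNA and piRNA (6 rows, including DAZL, DDX4 and PIWIL1) had 0 calls, a median of -0.28 and 2 of 30 pairs above that level. Germline chromatin, transcription and meiosis genes (6 rows, including BRDT and ATAD2) had 0 calls, a median of -0.32 and 6 of 30 such pairs. Sperm structure and fertilization genes (7 rows, including PLCZ1 and ADAM2) had 0 calls, a median of -0.38 and 5 of 35 such pairs. The 5 enzymes, with ALAS1 and TKTL1, had 0 calls, a median of -0.21 and 5 of 25 such pairs. The 2 placental genes, ADAM12 and XAGE3, had 0 calls, a median of -0.48 and 5 of 10 such pairs, all of ADAM12. This median, the lowest of these groups, rests on only 2 rows, ADAM12 at -0.26 and the undetected XAGE3 at -0.69. TKTL2, a transketolase-like gene of testis that is in none of these groups, had the smallest p of all rows, at -1.11 on the log2 scale with a standard error of 0.36 (edgeR, adjusted p = 0.0938), from 1 to 5 raw counts per well.

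Against the 2 empty-vector controls, edgeR called 1 row in the 5 wells (1.72% of 58), the ZBTB33 row, which was higher in 5 of 5 wells, by 9.14 on the log2 scale with a standard error of 1.83 (adjusted p = 7.53e-05). In the controls this row held 9 and 18 raw counts, below their negative-control levels of 25.9 and 22.7, so the fold is not exact. In the other kinase wells the same test also called 1 row (1.72% of 58), again the ZBTB33 row, at 10.87. These comparisons share their control wells. The ZBTB38 row was at -0.03 (standard error 1.09) in the 5 wells and at 1.72 (standard error 1.11) in the other kinase wells, and was called in neither. None of the tissue-restricted genes was called in the 5 wells against the controls.

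Related wells that the choice by label did not take were those of STK4 (MST1), the closest relative of STK3, of MOBKL2A (MOB3A), a MOB protein, and of PAK4, another STE20 kinase. In the ZBTB33 row they were at 16421, 47132 and 26180 scaled counts, above STK3, MOBKL1A, STK38L and TAOK3. ADAM12 was at 38.4 in STK4, 57.2 in MOBKL2A and 44.8 in PAK4. With these wells moved into the group, edgeR called 0 rows, 1 row had an unadjusted p under 0.05, and the median log2 fold change was -0.08. The difference shrank to -0.67 (standard error 0.50, adjusted p = 0.863) in the ZBTB33 row and to -0.65 (standard error 0.51, adjusted p = 0.863) in the ZBTB38 row.

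To see whether the wells resembled each other, the root mean square difference of log2 values over the 15 detected rows other than ZBTB33 and ZBTB38 was taken between wells. Among the 10 pairs of the 5 wells its median was 0.29 and its range 0.17 to 0.39. From these wells to the other kinase wells the median was 0.34, and between other kinase wells it was 0.38. The nearest pair was STK38L and TAOK3 (0.17), followed by STK3 and TAOK3 (0.18), and the most distant was STK38L and MOBKL1A (0.39), a kinase and an adaptor it is known to bind. STK3 and STK4 were 0.26 apart, which put STK4 at place 58 by nearness among the wells around STK3. MOBKL1A and MOBKL2A were 0.64 apart, and MOBKL2A was at place 8 from the farthest well of MOBKL1A.

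Each of the 5 wells was nearer to some other kinase wells than to its nearest partner, namely to 7 wells for STK3, 18 for MOBKL1A, 9 for STK38L, 20 for TAOK3 and 14 for OXSR1. Except for ILK beside STK3 and CSNK1E beside MOBKL1A, the nearest wells named here carried sample numbers within 6 of their own. TAOK3 was nearest to PIP5K1A (6 numbers apart), CALM2 (2) and BMX (1), at 0.08, 0.08 and 0.09. STK38L was nearest to TTK (4 numbers apart), MELK (2) and LCK (1), at 0.10, 0.10 and 0.13. OXSR1 was nearest to PLAU (2 apart) and MKNK1 (6), at 0.14 and 0.15. STK3 was nearest to ILK (86 apart) at 0.12 and to ACVR1 (1 apart) at 0.13, and MOBKL1A to CSNK1E (17 apart) at 0.19 and DGUOK (1 apart) at 0.20. The median distance to wells of the same block was 0.21 for STK3, 0.30 for MOBKL1A, 0.16 for STK38L, 0.14 for TAOK3 and 0.30 for OXSR1, and to other blocks 0.33, 0.43, 0.32, 0.30 and 0.33. Whether sample number stands for a plate, a day of infection or a run of the counter is not given in the sources used here, so its part in these values was not tested.

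**Figure D5:**
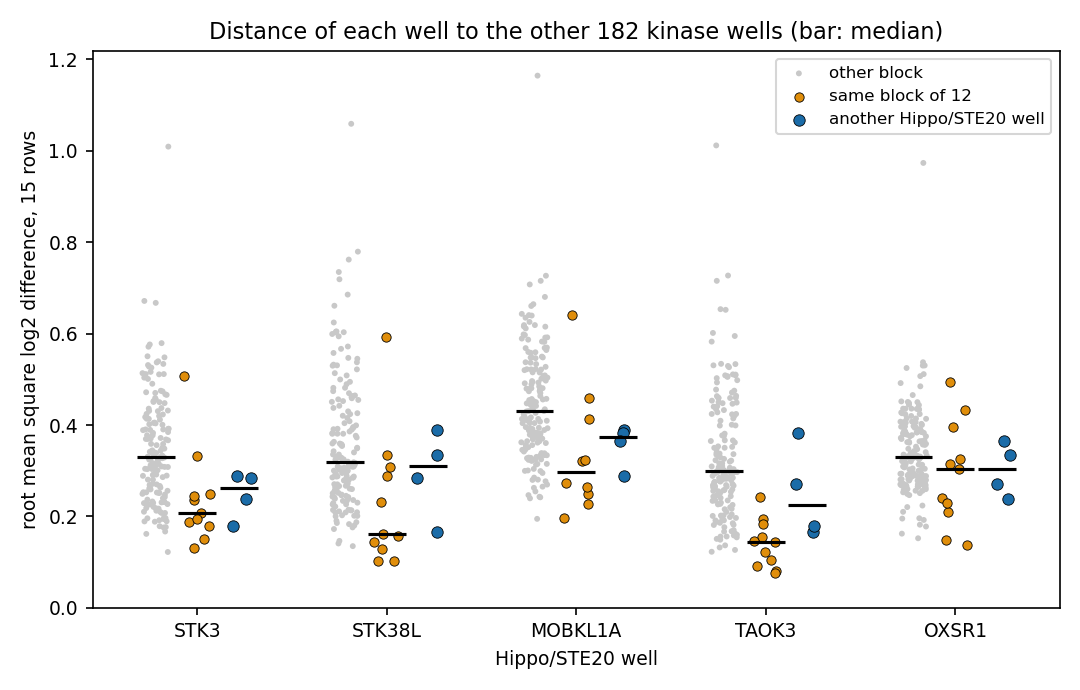
Root mean square log2 difference over 15 detected rows (vertical) from each of the 5 wells (horizontal) to the other kinase wells, 1 point per well, in grey for other blocks of 12 sample numbers, orange for the same block and blue for the other 4 wells described here, with the median as a bar. In STK3, MOBKL1A, STK38L and TAOK3 the wells of the same block lie nearer (medians of 0.21, 0.30, 0.16 and 0.14) than those of other blocks, and the medians of the blue points are not below those of the orange ones.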

How the data were processed

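The per-lane files deposited by the authors hold unnormalized counts of 75 probes. A separate table deposited by the authors holds a normalized signal, equal to the count times 1 factor per lane in all but 8 lanes, which were left unscaled. Nanostring counting was done on RNA with a RIN above 7.6, as the labels state. For this work, counts were divided first by the geometric mean of the 6 positive controls and next by that of PGK1, TBP and TUBB2A, relative to the kinase lanes, with no background subtraction. The negative-control level was the mean + 2 SD of 8 probes. Of the 61 endogenous and housekeeping probes, 55 were matched to RefSeq by accession, and names in the files were kept.

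Of the 197 samples, the 5 wells and the 178 wells of other kinases were compared with edgeR 4.0.16 (R 4.3.3) on counts with these factors as offsets, in 1 fit with the controls. DESeq2 1.42.0, limma 3.58.1 and an exact rank-sum permutation test (Python 3.11.15, scipy 1.17.1) were alternatives, and pseudocounts of 1 or 10 were added before log2. The other alternatives concerned scaling, background, blocks of sample numbers and wells left out. Programs were tested on simulated data. Intervals cover counting error only.

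The wells, gene lists and tests were chosen with earlier results of these data known. Rows named were those called in the first comparison or, with fewer than 5, the 5 smallest p among detected rows, the 2 highest and 2 lowest Z-scores of each well among detected rows, pairs past 2.5, and ADAM12, ATAD2, ALAS1, B2M, PGK1, TBP, TUBB2A, ZBTB33, ZBTB38 and MyrFlag. TKTL2, CTAG1B, HORMAD1, SSX1 and genes above background in MOBKL1A were named after their values were seen.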

Additional observations from a re-analysis of the deposited data

Results flagged for a closer look

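Over 23 measures examined in the 5 wells, 1 had a well far from the other 4 by Dixon's test, in which the gap to the nearest well is divided by the whole range and set against 0.71 for 5 samples. XAGE1 was lowest in the STK3 well, with a ratio of 0.817 on the log2 scale, from 2 raw counts. Chance flags about 1 in 20 groups taken without regard to their values, a rate that does not apply to XAGE1, which was among the measures because its Z-score in STK3 was already past -2.5.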

How the results depend on the processing

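In the comparison of the 5 wells with the other kinase wells, 0 rows were called in 13 alternatives. More were called in 7, all lower: 3 with DESeq2 on the same factors, 3 with limma, and 3 with limma on the authors' table. In limma with a pseudocount of 10 there were 2, and in limma with a floor at the negative-control level 2. The main count of 0 is edgeR's, so these last 2 settings are to be set against the 3 of limma. The exact rank-sum test called 1, and 0 to 2 were called when each well was left out (2 without OXSR1). Against the controls the count was 1 in all 18 alternatives. For the other kinase wells against the controls it was 1 in 11 alternatives chosen after the data had been seen, 2 with DESeq2's own size factors and 4 with the second control lane. Pairs above a Z-score of 2.5 stayed at 0 in all 14 alternatives. Pairs below -2.5 numbered 7 with a median centre and scaled median absolute deviation and 8 with blocks of 12 sample numbers centred, and 1 to 3 when each well was left out (1 without TAOK3). The counts of 7 and 8 stand without the share of the other kinase wells in the same settings. In the TAOK3 well the Z-score of the ZBTB33 row ranged from -6.64 to -3.51. XAGE1 in STK3 was at -2.22 with blocks centred, -2.06 with a pseudocount of 10 and -0.03 with the floor. The log2 difference of medians, -2.61 in the ZBTB33 row and -2.24 in the ZBTB38 row, kept its direction when each well was left out, from -2.88 to -1.84 and from -2.63 to -1.95. In the exact rank-sum test adjusted over only 3 rows (ZBTB33, ZBTB38 and MyrFlag), both gave 0.0148 with all 5 wells. Without STK38L, TAOK3 or STK3, however, neither passed 0.05 any longer in that test, which is no independent evidence. The cause of these changes was not tested. No paired analysis was possible because the kinase wells carry no replicate numbers shared with another group. The undetected rows, at 3 to 20 median raw counts, lay below the median negative-control level, so differences in them could not be told from background.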
